A study of Rattus norvegicus with 6 samples.

Results

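Neuropeptide precursor genes encode short secretory proteins from which signalling peptides are cut. The set described here holds 10 of the 18166 genes measured: Penk, Npy, Tac1, Gal, Calca, Adm, Vip, Sst, Nts and Cartpt. Each was taken by its symbol, from probe sets that the platform's annotation pairs with exactly 1 gene, with the probe set of the highest mean over the 6 arrays to be kept for a gene with several. Each of the 10 had a single probe set, so no value was used in that choice. Penk was singled out for its large difference between the cultures, so its values are given as a description with no test.

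Expression arrays were run on 2 kinds of culture from newborn Sprague-Dawley rat pups, and each kind is represented by 3 isolates described as independent, with an array for each. Skin-derived precursors (SKPs) came from back skin and grew as floating spheres in medium with B27 supplement, 20 ng/ml EGF and 40 ng/ml FGF2. Nerve-derived Schwann cell precursors (NSCPs) came from sciatic nerve and grew on laminin and poly-D-lysine with neuregulin-1β at 25 ng/ml, forskolin at 5 μM and N2 supplement. The labels repeat 1 text with both media for all samples, and its mention of B27, placed after the NSCP medium, was taken here to belong to the SKPs. No genetic change is named in either group. Tissue, medium and growth form differ together between the groups, so their parts cannot be told apart. Both are bulk cultures in which fewer cells of a type and less RNA per cell cannot be told apart.

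A neuropeptide begins as a precursor that enters the secretory pathway, where convertases cut it at basic residues and other enzymes trim and amidate the pieces. The mature peptides are stored in dense-core granules, released, bound by receptors that mostly couple to G proteins, and destroyed by peptidases on cell surfaces. In peripheral nerve, calcitonin gene-related peptide (CGRP) and substance P are best known from sensory fibres, and neuropeptide Y (NPY) from sympathetic ones. Several of these genes, Penk, Sst and Vip among them, are classical targets of cyclic AMP signalling, and forskolin activates adenylyl cyclase. Penk transcripts are also known from mesenchymal cells outside the nervous system.

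All levels below are the deposited log2 values, on which a difference of 1 is a factor of 2, and all differences are NSCPs minus SKPs. A gene was called higher or lower in NSCPs when limma's Benjamini-Hochberg adjusted p over all 18166 genes was under 0.05. Of all genes, 43.7% were called, 25.2% higher and 18.6% lower. Because so many were called, a call on its own sets a gene little apart from the rest. Higher genes made up 57.5% of all calls, and 75.1% when each array was centred on its median, which moved the median difference of all genes up by 0.20. The level of background was set from 227 odorant and pheromone receptor genes of the olfactory and vomeronasal organs. The 95th percentile of their mean values was 5.32, and a group mean not above this is said to lie within background.

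Of the 9 precursor genes other than Penk, Calca and Vip were called higher in NSCPs, Npy, Tac1 and Gal lower, and Adm, Sst, Nts and Cartpt neither. Penk, which was not tested, was lower in NSCPs. The median difference of the 10 was 0.13, beside 0.14 for all genes. The arrays of the groups did not overlap for 7 of the 10, and for 56.6% of all genes. The SKP mean was above background for 7 genes and the NSCP mean for 6, while Vip, Nts and Cartpt were within background in both. With the 99th percentile of the receptor genes, 6.47, in place of the 95th, 3 SKP means (Penk, Npy and Gal) and 1 NSCP mean (Calca) were above background.

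**Figure D1:**
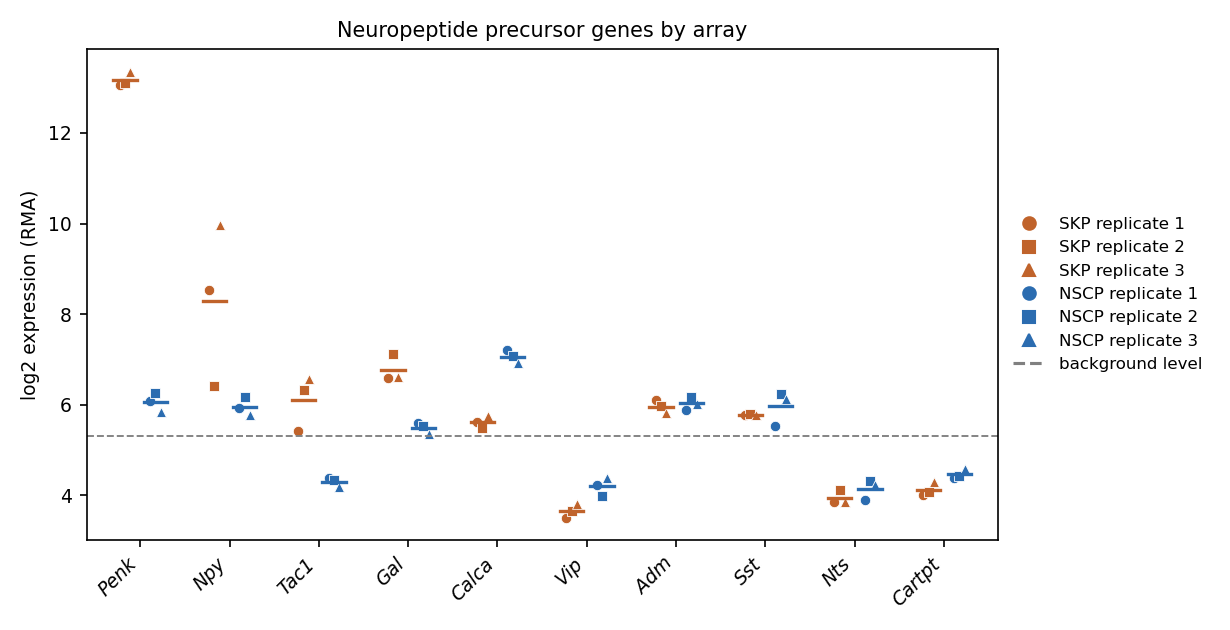
The log2 expression of each of the 10 precursor genes is plotted for each array, with SKPs in orange and NSCPs in blue, a symbol for each replicate, a bar at each group's mean and a dashed line at the background level of 5.32. Penk lies between 13.05 and 13.36 in SKPs and between 5.84 and 6.26 in NSCPs, and Npy runs from 6.41 to 9.96 in SKPs.

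Penk, the precursor of Met- and Leu-enkephalin, was at 13.05, 13.10 and 13.36 in SKP replicates 1, 2 and 3 and at 6.07, 6.26 and 5.84 in NSCP replicates 1, 2 and 3. All SKP arrays were thus far above all NSCP arrays, and neither group was widely spread. The means were 13.17 ± 0.16 and 6.06 ± 0.21 (SD, n = 3 each), a difference of -7.11, or 138-fold lower in NSCPs. Only 9 of the 18166 genes had a more negative difference. The NSCP mean was above the background level of 5.32 and below the 99th percentile of the receptor genes.

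The 5 genes whose profile over the 6 arrays was nearest to that of Penk, once each gene's own mean was taken off, were Ifitm1, Pdgfra, Slco2a1, Serpinf1 and Anpep. Their root mean square distances from Penk were 0.19, 0.20, 0.23, 0.24 and 0.27 log2 units. Pdgfra, the PDGF receptor alpha of mesenchymal cells, was at 12.33 in SKPs and 5.44 in NSCPs. Serpinf1 encodes the secreted factor PEDF, and Anpep is the aminopeptidase N that removes the first residue of enkephalins.

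Other precursors of opioid peptides did not share the direction of Penk. Pdyn, the dynorphin precursor, was called higher by 0.40 (adjusted p = 0.03) but was within background in both groups. Pnoc, the nociceptin precursor, averaged 5.84 in SKPs and 6.30 in NSCPs, a difference of 0.46 (adjusted p = 0.0176). Pomc, which gives rise to beta-endorphin, differed by 0.41 (adjusted p = 0.0495), with the SKP mean within background. These 3 genes were named after their values were seen.

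Among 6 genes for receptors that bind opioid peptides, 3 (50%, beside 25.2% of all genes) were called higher in NSCPs. None was called lower, beside 18.6% of all genes, and none was lower at an unadjusted p under 0.05 (limma). Of the 3, Ackr3 alone was above background. Ackr3, a scavenger receptor that binds CXCL12 as well as enkephalins and other opioid peptides, was at 6.91, 7.15 and 6.95 in the SKP arrays and 8.24, 8.21 and 8.03 in the NSCP arrays. Every NSCP array was higher, by 1.16 ± 0.13 on average (SE, adjusted p = 0.000114), or 2.23-fold. Oprm1 and Oprk1, the mu and kappa receptors, were called higher by 0.41 (adjusted p = 0.0216) and 0.69 (adjusted p = 0.00927), but both stayed within background in both groups. Oprd1, the delta receptor with high affinity for enkephalins, overlapped between the groups and differed by -0.25 (adjusted p = 0.209). Ogfr, the nuclear-envelope receptor for Met-enkephalin, was at 7.98 ± 0.15 in SKPs and 8.10 ± 0.22 in NSCPs (SD, n = 3 each), with an adjusted p of 0.554 in limma. Oprl1, the nociceptin receptor, was within background in both.

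Npy encodes neuropeptide Y, a vasoconstrictor and sympathetic cotransmitter. It was at 8.52, 6.41 and 9.96 in the SKP arrays and at 5.93, 6.16 and 5.78 in the NSCP arrays. SKP replicate 2 lay just above the highest NSCP array, while replicate 3 was more than 3 log2 units above replicate 2. The SKP mean of 8.30 ± 1.78 exceeded the NSCP mean of 5.96 ± 0.19 (SD, n = 3 each), a difference of -2.34 ± 0.72 (SE, adjusted p = 0.0286 in limma), or 5.06-fold. The SD over the SKP arrays was larger than that of 99.96% of genes. Leaving out any array but SKP replicate 2 ended the call, with adjusted p from 0.0545 without SKP replicate 3 to 0.0820 without NSCP replicate 2. Without SKP replicate 2 the difference was -3.28 (adjusted p = 0.000126), and without SKP replicate 3 it was -1.51.

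Of the 4 NPY receptor genes, Npy1r, the receptor through which NPY constricts vessels, was the only one called. It was at 5.70, 6.11 and 6.61 in SKPs and at 3.71, 3.16 and 4.34 in NSCPs, so that the lowest SKP array was above the highest NSCP array. The difference was -2.40 ± 0.31 (SE, adjusted p = 0.000337). Since the NSCP mean was within background, the fold is a bound set against the background level: at least 1.77-fold lower. Every fold given below for a gene with 1 group within background is such a bound. It concerns the group means and makes no allowance for the spread of the arrays. Npy2r, Npy4r and Npy5r were within background in both groups, and with median centring Npy2r and Npy5r were called higher by 0.49 and 0.53.

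Tac1 encodes the precursor of substance P and neurokinin A. It was at 5.41, 6.32 and 6.56 in SKPs and 4.38, 4.33 and 4.19 in NSCPs. Every SKP array was above background, SKP replicate 1 only just, and every NSCP array was within it. The difference was -1.80 ± 0.27 (SE, adjusted p = 0.000695), or at least 1.72-fold lower in NSCPs. It ranged from -2.14 to -1.57 over the alternative fits.

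Both measured tachykinin receptor genes were lower in NSCPs. Tacr3, the receptor preferred by neurokinin B, was at 8.31, 7.07 and 8.39 in SKPs and at 6.02, 5.48 and 5.40 in NSCPs, a difference of -2.29 ± 0.34 (SE, adjusted p = 0.000711) or 4.89-fold. Tacr1, the substance P receptor, was at 8.11, 5.22 and 8.12 in SKPs and at 5.28, 5.04 and 5.14 in NSCPs. SKP replicate 2 thus fell among the NSCP arrays, while the other SKP arrays nearly coincided. The difference was -2.00 ± 0.67 (SE, adjusted p = 0.0404), or at least 3.56-fold for the group means. SKP replicate 2 was itself within background and does not meet this bound. Without SKP replicate 1 or SKP replicate 3 the difference was -1.52 each time, so the bound does not hold when either of these arrays is left out. Leaving out any array but SKP replicate 2 ended the call with adjusted p from 0.0871 to 0.126. Without SKP replicate 2, Tacr1 differed by -2.97 (adjusted p = 9.96e-07).

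Gal encodes galanin, a peptide of sensory and enteric neurons that is known to increase after nerve injury. It was at 6.59, 7.11 and 6.62 in SKPs and at 5.60, 5.53 and 5.35 in NSCPs, with every SKP array higher. The means of 6.77 ± 0.29 and 5.49 ± 0.13 (SD, n = 3 each) differed by -1.28 ± 0.17 (SE, adjusted p = 0.000324 in limma), or 2.43-fold. Its receptor gene Galr2 was lower too, at 7.39, 7.39 and 7.17 in SKPs and 6.68, 6.48 and 6.52 in NSCPs, a difference of -0.76 (adjusted p = 0.00135). Galr1 was within background in both groups and was not called.

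Calca encodes calcitonin and alpha-CGRP, which arise from alternative splicing and are not told apart by a value per gene. It was at 5.62, 5.49 and 5.74 in SKPs and at 7.20, 7.07 and 6.91 in NSCPs. Every NSCP array was higher than every SKP array, and the spread within each group was small. The means of 5.62 ± 0.12 and 7.06 ± 0.15 (SD, n = 3 each) differed by 1.45 ± 0.13 (SE, adjusted p = 3.71e-05 in limma), or 2.72-fold, with a range of 1.30 to 1.65 over the alternative fits.

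Calcb, the paralog that encodes beta-CGRP, moved the same way: it was at 5.24, 5.97 and 5.34 in SKPs and at 9.11, 9.57 and 9.28 in NSCPs. The difference was 3.80 ± 0.21 (SE, adjusted p = 1.86e-06), or 14.0-fold higher in NSCPs. The CGRP exons of both genes are closely similar in sequence, so part of the signal of either probe set could come from the other gene, and this share was not tested. The 5 genes nearest in profile to Calca were Cobll1, Rad51c, Pxmp2, C2h4orf46 and Tube1, at root mean square distances of 0.067, 0.068, 0.075, 0.081 and 0.089 log2 units.

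Adm, which encodes adrenomedullin, a vasodilator that shares its receptor subunits with CGRP, was not called in either direction. It was at 6.09, 5.97 and 5.81 in SKPs and at 5.89, 6.18 and 6.01 in NSCPs, and the groups overlapped. The difference of 0.07 had a 95% interval of -0.24 to 0.37 (adjusted p = 0.703). Adm is a classical target of hypoxia. Among 11 other hypoxia targets 2 (18.2%, beside 25.2% of all genes) were called higher and 3 (27.3%, beside 18.6%) lower. The calls ran from Ldha at 1.07 (adjusted p = 0.00011) to Slc2a1 at -0.93 (adjusted p = 0.00292).

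The receptor for CGRP and adrenomedullin is a pair of Calcrl and a RAMP subunit, with RAMP1 giving CGRP selectivity and RAMP2 or RAMP3 adrenomedullin selectivity. Calcrl was at 9.54, 8.60 and 9.44 in SKPs and within background, at 4.93, 4.62 and 4.26, in NSCPs. It had the most negative difference of the 29 receptor genes, -4.59 ± 0.27 (SE, adjusted p = 2.54e-06), or at least 14.7-fold lower. Thus Calcrl was lower in the culture in which Calca and Calcb were higher.

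Ramp2 was at 7.23, 7.31 and 7.19 in SKPs and 5.26, 6.01 and 5.70 in NSCPs, a difference of -1.58 (adjusted p = 0.000172) or 3.00-fold. Ramp3 was at 6.73, 8.16 and 7.58 against 5.45, 5.13 and 5.53, a difference of -2.12 (adjusted p = 0.000728) or 4.35-fold. Both adrenomedullin-type subunits were lower in every NSCP array. Ramp1 overlapped, at 7.22, 5.86 and 6.85 against 6.32, 6.67 and 6.70, and differed by -0.08 with a 95% interval of -0.79 to 0.63 (adjusted p = 0.847). Calcr, the calcitonin receptor, was higher in NSCPs by 0.86 (adjusted p = 0.00339), or at least 1.31-fold, with the SKP mean within background.

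Vip encodes vasoactive intestinal peptide. It was at 3.51, 3.66 and 3.82 in SKPs and at 4.24, 3.98 and 4.39 in NSCPs, so every NSCP array was higher although all 6 arrays were within background. The difference was 0.54 ± 0.15 (SE, adjusted p = 0.0167), and it gives no fold. The call was lost without NSCP replicate 3 (0.45, adjusted p = 0.0660) and without SKP replicate 1 (0.47, adjusted p = 0.0576).

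Both measured VIP-family receptor genes went the other way and were expressed above background in SKPs, while Vipr1 was not analysed here. Vipr2, which binds VIP and the related peptide PACAP, was at 7.00, 6.22 and 7.07 in SKPs and 4.86, 4.88 and 4.56 in NSCPs, a difference of -2.00 (adjusted p = 0.000146) or at least 2.72-fold. Adcyap1r1, the PACAP-selective receptor, was at 7.58, 6.45 and 7.04 against 5.16, 4.77 and 5.31, a difference of -1.94 (adjusted p = 0.000507) or at least 3.26-fold. NSCP means of both were within background.

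Sst, the somatostatin precursor, was at 5.77, 5.80 and 5.78 in SKPs and at 5.54, 6.23 and 6.13 in NSCPs. The SKP arrays were nearly equal, and the NSCP arrays lay on both sides of them. The difference of 0.18 had a 95% interval of -0.23 to 0.60 (adjusted p = 0.441), and without NSCP replicate 1 it was 0.40 (adjusted p = 0.0382). Of 5 somatostatin receptor genes, Sstr4 alone was called, higher by 0.52 (adjusted p = 0.0196) or at least 1.24-fold, with the SKP mean within background.

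Nts, the neurotensin precursor, was at 3.85, 4.11 and 3.85 in SKPs and at 3.91, 4.32 and 4.22 in NSCPs, all within background. The difference of 0.21 had a 95% interval of -0.13 to 0.55 (adjusted p = 0.287), and with median centring Nts was called higher by 0.41 (adjusted p = 0.0429). Cartpt, the precursor of the CART peptides, was at 4.02, 4.06 and 4.29 against 4.38, 4.42 and 4.58, also all within background. Its groups did not overlap, but the difference of 0.34 (95% interval 0.05 to 0.64) missed the threshold at an adjusted p of 0.0594, and it was called with array weights (adjusted p = 0.0305) and with median centring (adjusted p = 0.00693). Neither of the measured neurotensin receptor genes, Ntsr1 and Sort1, was called, and Ntsr2 was not analysed here. Sort1, the sorting receptor sortilin that also binds neurotensin, was at 10.82, 9.62 and 10.17 in SKPs and at 10.44, 10.47 and 10.40 in NSCPs, and was called higher only without SKP replicate 1 (0.54, adjusted p = 0.0477).

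**Figure D2:**
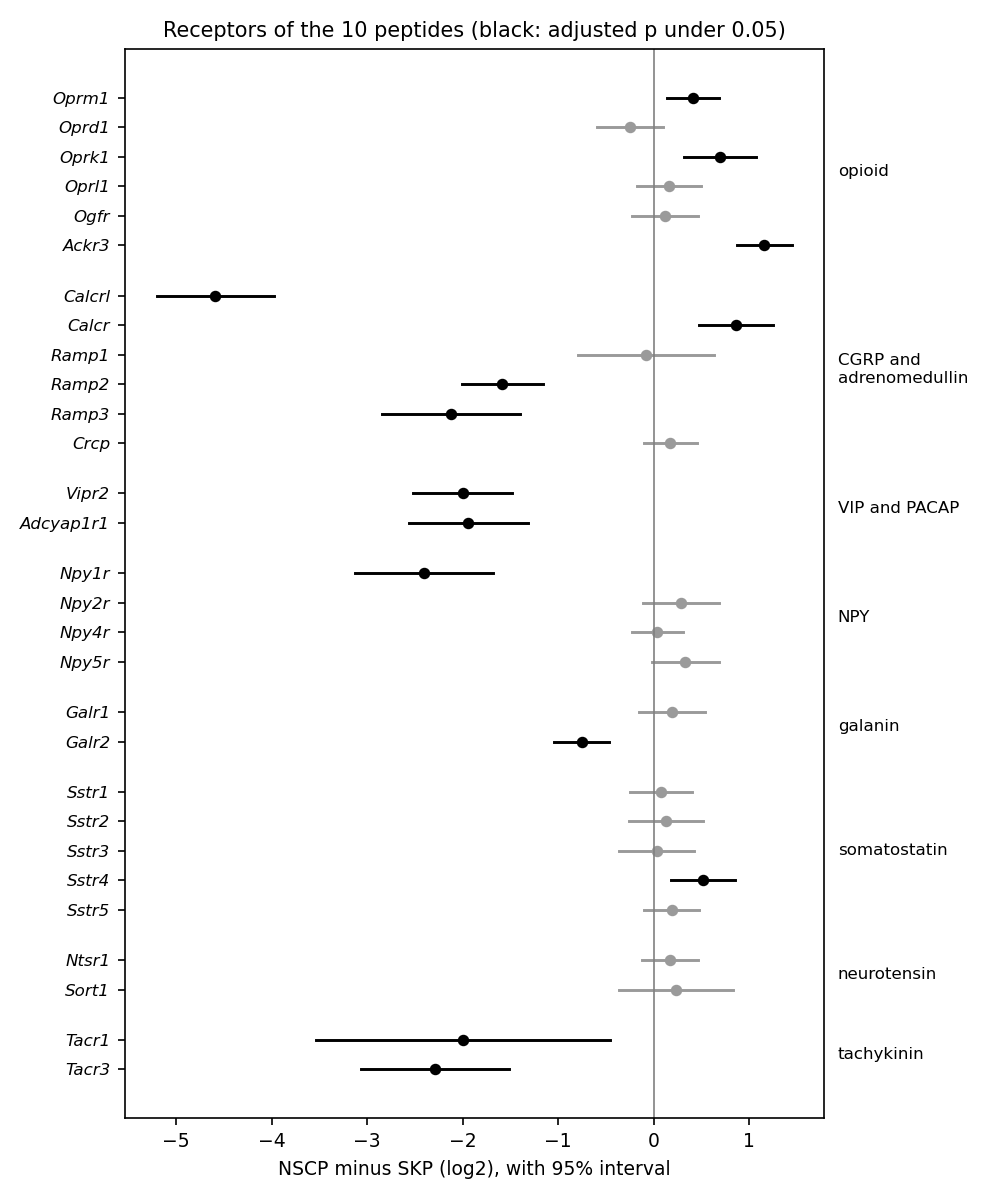
The difference of each of the 29 measured receptor genes (NSCPs minus SKPs, log2) is plotted with its 95% interval, grouped by the peptides bound, in black where the adjusted p was under 0.05 and in grey elsewhere. The 9 lower genes belong to the CGRP and adrenomedullin, VIP and PACAP, NPY, galanin and tachykinin groups, with Calcrl farthest at -4.59, and the higher ones reach 1.16 in Ackr3.

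Over all 29 measured receptor genes, 5 (17.2%, beside 25.2% of all genes) were called higher in NSCPs and 9 (31%, beside 18.6%) lower. The other 15 were called neither way, and the median difference was 0.12. Of the 29, 8 (27.6%) were called lower by 2-fold or more, beside 9.98% of all genes, and Ackr3 alone (3.45%) was called higher by that much, beside 7.45% of all genes. In all, 10 receptor genes were within background in both groups, and Oprm1 and Oprk1 were among these although called.

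Cyclic AMP response elements (CREs) bind CREB-family factors, and the letters of such elements were looked for on both strands of the promoters. The windows ran from 250 bases before to 50 after the RefSeq start (build GRCr8), and 9 of the 10 genes matched an entry, Penk not. The palindrome TGACGTCA was found for Cartpt and Sst and in 1.83% of all 33469 windows. The variant TGCGTCA was found for Calca and Tac1 and in 1.9% of windows. The 5 letters TGACG, which lie inside the palindrome and inside the reverse strand of the variant, were found for 7 of the 9 genes and in 21.2% of windows. A match describes letters only and was not linked here to any binding. The stretches below show the matches of the called genes and of the palindromes, 5′ to 3′ on the gene's strand, with the matched letters in capitals.
Calca: aagcaccgaggTGACGCAatctgtctgggg
Tac1: ttccctaaaatTGCGTCAtttcgaacccaa
Gal: gcgctgagcgggTGACGcggcagctcccac
Vip: ggatcaccactgTGACGtctttcgaggagc
Sst: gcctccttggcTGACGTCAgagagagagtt
Cartpt: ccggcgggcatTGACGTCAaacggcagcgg

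The Calca stretch lies at chr1:178317623-178317652 on the minus strand, with its variant on the opposite strand of the gene and its first matched base at -112 from the start. The Tac1 stretch is at chr4:36645364-36645393 on the plus strand (first matched base at -208), and that of Gal at chr1:210084618-210084647 on the minus strand (-63). The Vip stretch is at chr1:44470371-44470400 on the plus strand (-97), that of Sst at chr11:90461537-90461566 on the plus strand (3 bases after the start), and that of Cartpt at chr2:32991359-32991388 on the minus strand (-142). Genes with these letters were found on either side of the comparison: Calca and Vip were called higher in the forskolin-containing culture, Tac1 and Gal lower, and Sst and Cartpt, with the full palindrome, neither. Adm and Npy held none of the 3 motifs in this window.

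Of 14 CREB and AP-1 factors themselves, 4 (28.6%, beside 25.2% of all genes) were called higher in NSCPs and 4 (28.6%, beside 18.6%) lower. Atf3, a stress-induced factor, was higher by 1.80 ± 0.17 (SE, adjusted p = 4.98e-05), or 3.48-fold. Jund, Fosl1 and Crem were higher by 1.27, 0.93 and 0.92 (adjusted p = 0.000312, 0.000768 and 0.000487). Crtc3 and Crtc2, coactivators of CREB, differed by -0.91 and -0.83 (adjusted p = 0.000313 and 0.00271).

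The enzymes that turn precursors into peptides were mostly lower in NSCPs. Of 10 measured, 7 (70%, beside 18.6% of all genes) were called lower and 2 (20%, beside 25.2%) higher, with a median difference of -0.96. Ctsl, the protease cathepsin L that can cut proenkephalin, was at 11.44 ± 0.11 in SKPs and 9.08 ± 0.10 in NSCPs (SD, n = 3 each), or 5.15-fold lower (limma adjusted p = 1.28e-06). Pcsk2, the neuroendocrine convertase PC2, was at 5.91, 5.45 and 5.93 in SKPs and at 4.78, 4.96 and 4.76 in NSCPs, at least 1.36-fold lower (adjusted p = 0.0015). Furin and Pcsk5, convertases of the constitutive pathway, were 1.98-fold and 2.13-fold lower.

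Pam, which amidates the ends of NPY, CGRP, substance P, VIP and adrenomedullin, was at 9.59 ± 0.33 in SKPs and 8.50 ± 0.05 in NSCPs (SD, n = 3 each), 2.14-fold lower (limma adjusted p = 0.000968). Qpct, which forms the pyroglutamate at the start of neurotensin, was 2.49-fold lower (adjusted p = 7.45e-05). Cpd, a carboxypeptidase that trims basic residues and was named after its value was seen, went the other way: 10.05 ± 0.07 in SKPs and 10.98 ± 0.11 in NSCPs (SD, n = 3 each; limma adjusted p = 0.000303). Pcsk1 and Cpe were not analysed here.

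Of 19 granin and granule genes, 3 (15.8%, beside 25.2% of all genes) were called higher in NSCPs and 4 (21.1%, beside 18.6%) lower. The lower ones act in docking and release: Rab27b was at least 4.43-fold lower (adjusted p = 3.4e-06), Cadps at least 2.75-fold (adjusted p = 0.000397) and Rab27a 2.60-fold (adjusted p = 0.00132). Rab3a, named after its value was seen, differed by -0.61 (adjusted p = 0.00668). The higher ones are granins or granin-like: Scg3 was at least 1.16-fold higher (adjusted p = 0.00174), and Scg2 and Vgf were called higher by 1.10 and 0.67 but were within background in both groups.

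Of 13 peptidases that break neuropeptides down, 7 (53.8%, beside 18.6% of all genes) were called lower in NSCPs and 3 (23.1%, beside 25.2%) higher. The call of Ece2, named after its value was seen, was close to the threshold (-0.32, adjusted p = 0.0486), and 6 were lower with median centring, renewed quantile normalization, the trended prior or any array left out, and 5 at an adjusted p under 0.01. Anpep, which together with neprilysin inactivates enkephalins, was at 11.91, 11.59 and 11.54 in SKPs and at 4.67, 4.81 and 4.87 in NSCPs. It was thus within background in every NSCP array and differed by -6.90 (adjusted p = 2.15e-08), or at least 82.4-fold. Mme, which is neprilysin, was at 10.11, 9.46 and 9.92 against 8.30, 7.88 and 8.21, a difference of -1.70 (adjusted p = 0.000135) or 3.25-fold. Penk, Anpep and Mme were therefore higher in the same culture. Dpp3 and Npepps, peptidases of the same list named after their values were seen, were not called. They differed by 0.06 and 0.19 (adjusted p = 0.703 and 0.199).

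Ace, the angiotensin-converting enzyme, was at 8.90, 6.75 and 9.20 in SKPs and at 4.96, 5.28 and 5.38 in NSCPs, a difference of -3.08 ± 0.55 (SE, adjusted p = 0.00199) or at least 7.82-fold, with the NSCP mean within background. SKP replicate 2 was the lowest, and without it the difference was -3.84. Without SKP replicate 1 the difference was -2.77 and without SKP replicate 3 it was -2.62, so the bound does not hold when either of these arrays is left out. Ece1, an endothelin-converting enzyme that also cleaves CGRP and substance P inside cells, was 2.56-fold lower (adjusted p = 0.000141). Thop1 and Prep, peptidases of the cytosol, were higher by 0.94 and 0.85 (adjusted p = 0.00162 and 0.000513).

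**Figure D3:**
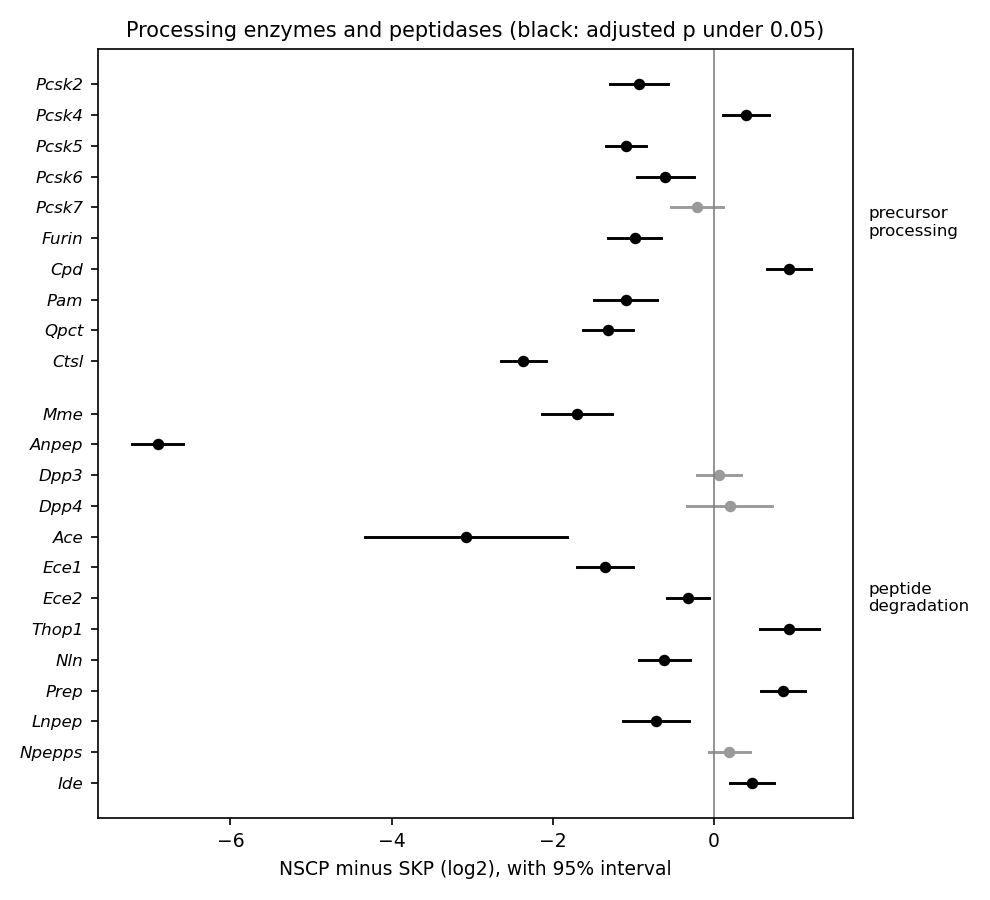
The difference of each measured processing enzyme and peptidase (NSCPs minus SKPs, log2) is plotted with its 95% interval, in black where the adjusted p was under 0.05 and in grey elsewhere. Anpep at -6.90 lies farthest from 0. Of the processing enzymes 7 of 10, and of the peptidases 7 of 13, were called lower in NSCPs, beside 18.6% of all genes.

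Most other peptide precursors were not called. Of 54 measured, 14 (25.9%, beside 25.2% of all genes) were called higher in NSCPs, 1 (1.85%, beside 18.6%) lower and 39 neither, with a median difference of 0.23, and 22 were within background in both groups. Ucn2, which encodes urocortin 2, a ligand of the type 2 CRH receptor, was at 6.11, 5.53 and 5.43 in SKPs and at 9.88 and 9.87 in NSCP replicates 1 and 3, with replicate 2 slightly higher and the NSCP mean at 9.92 ± 0.07 (SD, n = 3). The NSCP arrays were close together and all far above the SKP arrays, by 4.23 ± 0.18 on average (SE, adjusted p = 4.36e-07), or 18.7-fold.

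Cck, the cholecystokinin precursor, was at 5.93, 6.38 and 6.01 in SKPs and 8.79, 9.09 and 8.27 in NSCPs, 6.12-fold higher (adjusted p = 2.25e-05). Nppc, which encodes the C-type natriuretic peptide, was 2.40-fold higher (adjusted p = 0.000366). Pmch was called higher by 0.85 with both groups within background. The single lower precursor was Npb, which encodes neuropeptide B, at 7.00, 6.89 and 6.97 in SKPs and 5.04, 5.42 and 5.21 in NSCPs, at least 3.11-fold lower (adjusted p = 1.38e-05).

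**Figure D4:**
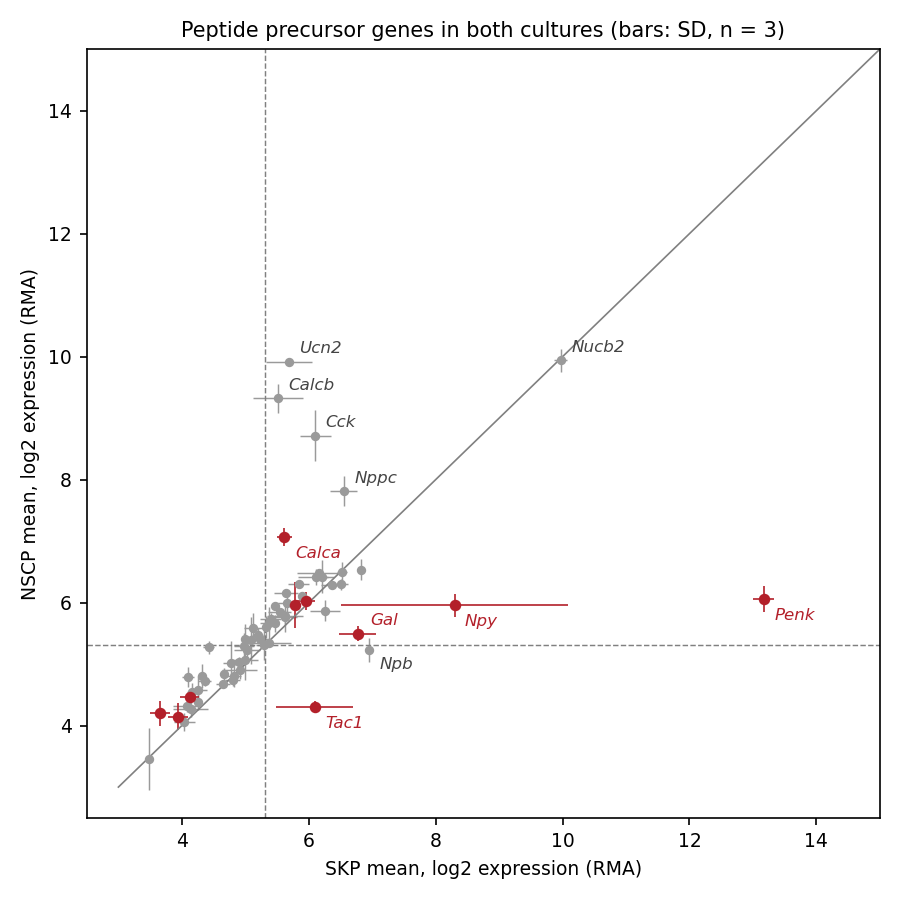
The mean log2 expression in NSCPs is plotted against that in SKPs for the 10 genes (red) and 54 other peptide precursors (grey), with bars for the SD over 3 arrays, the line of equality and dashed lines at the background level of 5.32. Penk lies alone at the right, and Ucn2, Calcb, Cck, Nppc and Calca stand above the line.

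Markers of neurons, the cells in which most of these precursors are best known, were mixed. The mean over 15 sensory and autonomic neuron markers was 5.07 to 5.17 in the SKP arrays and 5.32 to 5.38 in the NSCP arrays. Their summed levels ran from 76.0 to 77.5 and from 79.8 to 80.6. Of the 15, 4 (26.7%, beside 25.2% of all genes) were called higher in NSCPs and 2 (13.3%, beside 18.6%) lower. Tubb3, a tubulin of neurons, averaged 5.53 in SKPs and 8.33 in NSCPs, 6.96-fold higher (limma adjusted p = 2.16e-06), and the sodium channel gene Scn9a was higher by 1.17, at least 1.30-fold. Pou4f1 and Elavl3 were higher by 0.55 and 0.42, and Stmn2 and Elavl4 differed by -0.71 and -1.30. The mean was above background in at least 1 group for 8 of the 15, while Prph, Isl1, Scn10a, Elavl4, Th, Dbh and Syt1 were within background in both. The part of neurons in the peptide gene levels was not tested. Of 8 Schwann cell markers, 7 (87.5%, beside 25.2% of all genes) were called higher in NSCPs. The other, Fabp7, was within background in both groups, at 3.88 in SKPs and 3.56 in NSCPs. All 10 dermal mesenchyme markers were called lower, beside 18.6% of all genes. Whether the cells of either culture are precursors was not tested.

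Macrophage markers differed in the same direction as Penk, Npy, Tac1 and Gal. Of 10, 9 (90%, beside 18.6% of all genes) were called lower in NSCPs, where 6 were within background. The mean of the 10 was 10.53, 9.45 and 9.87 in SKP replicates 1, 2 and 3 and 5.05 to 5.20 in NSCPs. Their summed level was 94.5 to 105 in SKPs and 50.5 to 52.0 in NSCPs. The 7 adipocyte markers averaged 8.52, 8.05 and 8.37 in the SKP arrays and 5.00 to 5.57 in the NSCP arrays. Of these, 6 (85.7%, beside 18.6% of all genes) were called lower in NSCPs. Replicate 2 was the lowest SKP array for both lists, as it was for Npy, Tacr1, Tacr3, Calcrl, Vipr2, Adcyap1r1 and Ace. These genes were picked after their values were seen, and the share of such genes among all was not counted. Replicate 2 was instead the highest SKP array for Gal, Ramp3, Rab27a and Rab27b, and replicate 1 the lowest for Penk, Tac1 and Npy1r. The part of these cells in the levels of peptide, receptor and peptidase genes was not tested.

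Mast cell markers averaged 4.61 to 4.73 in SKPs and 4.77 to 5.07 in NSCPs over 7 genes. Kit, Gata2 and Tpsb2 were above background in both groups and not called, and Cpa3, Fcer1a, Ms4a2 and Hdc were within background in both, with Hdc called higher by 0.34 (adjusted p = 0.0442). Markers of Merkel and neuroendocrine cells averaged 5.16 to 5.47 in SKPs and 5.68 to 6.01 in NSCPs over 8 genes. Of these, 2 (25%, beside 25.2% of all genes) were called higher and 1 (12.5%, beside 18.6%) lower. Sox2, a transcription factor also known from Schwann cell precursors, averaged 7.65 in SKPs and 10.65 in NSCPs, 7.98-fold higher (adjusted p = 0.000348). Endothelial markers averaged 4.81 to 4.96 and 5.11 to 5.31 over 6 genes. Among them Tek, an angiopoietin receptor, averaged 4.89 in SKPs and 6.80 in NSCPs, at least 2.79-fold higher (adjusted p = 9.46e-06), and Emcn was called higher with both groups within background. Keratinocyte markers averaged 4.82 to 4.88 and 5.03 to 5.34 over 6 genes, with Epcam called higher within background. The part of these lists in the Calca and Vip differences was not tested.

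Single SKP arrays stood apart for some genes of the peptide system. Replicate 2 was at least 1 log2 unit below both other SKP arrays in 130 of the 18166 genes (0.716%), and Npy, Tacr1, Tacr3, Ace and Cadps were among them. The same count was 26 for replicate 1 and 16 for replicate 3. Replicate 1 was at least 1 log2 unit above both other SKP arrays in 103 genes, replicate 2 in 45 and replicate 3 in 10, with Npy among the last. Penk, Gal and Tac1 were not low in replicate 2.

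**Figure D5:**
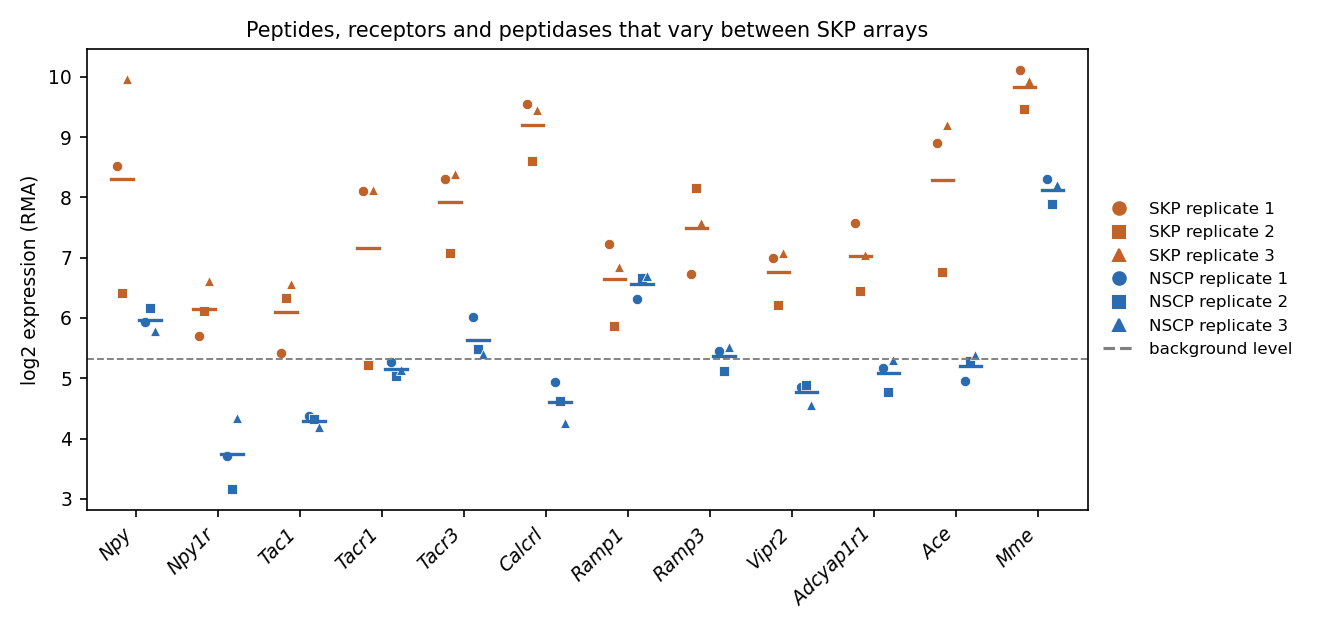
The log2 expression of 12 peptide, receptor and peptidase genes, chosen after their values were seen, is plotted for each array with a bar at each group's mean and a dashed line at the background level of 5.32. SKP replicate 2 (orange square) is the lowest SKP array for Npy, Tacr1, Tacr3 and Ace but the highest for Ramp3.

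Over all genes, 67.3% to 69.1% lay above background in each array. Arrays of a group correlated at 0.984 to 0.993 and arrays of different groups at 0.872 to 0.888, across genes, which are not independent. The median SD over 3 arrays was 0.142 in SKPs and 0.173 in NSCPs. The files give no read depth, so the number of arrays limits the precision.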

How the data were processed

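RNA of 3 SKP and 3 NSCP cultures was hybridised to expression arrays, from 400 ng of total RNA each, per the labels' protocols. The deposited log2 values, 1 per probe set and array, were made by the authors with oligo and RMA, per the submitters' processing notes, which give no versions. RMA equalises the arrays' distributions, so a shift of all genes together would not be seen. Of 36685 probe sets, the platform table paired 18511 with 1 gene symbol, 575 with several and 17599 with none. By Entrez ID 18394 symbols matched RefSeq. For 291 genes with several probe sets that of the highest mean was kept, leaving 18166 genes.

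No further normalization or filter was applied. The groups were tested with the functions lmFit and eBayes of limma (version 3.58.1, under R 4.3.3), 2-sided, with Benjamini-Hochberg adjustment and a threshold of 0.05, in a script tested on simulated data. Python 3.11.15 and matplotlib 3.10.9 drew the figures. Groups, from the titles, hold independent isolates. The genome build of the probe sets was not used here, and promoter windows came from RefSeq.

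The members, gene lists and tests were chosen with earlier results of these data known. All members and receptors could be named. From each other list up to 6 called genes with the largest difference were named, or, in lists with fewer than 3 calls, the 3 of highest mean, and for profiles the 5 nearest genes. Markers named because they lie within background in both groups, and genes said to be named after their values were seen, fall outside this rule. A bound on a fold sets the higher mean against the background level and makes no allowance for the spread of the arrays. Alternatives were renewed quantile normalization, median centring, removal of dim genes, averaged probe sets, a prior fitted with trend and robust settings, weighted arrays, a replicate block, each array left out, an adjusted p under 0.01 and other background percentiles.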

Additional observations from a re-analysis of the deposited data

How the results depend on the processing

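Calca, Vip, Npy, Tac1 and Gal kept their direction in every alternative fit in which they were tested. Npy ran from -3.38 to -1.51, and Penk, as a description, from -7.35 to -6.91. Median centring raised the higher calls from 2 to 4 among the 10 precursor genes, from 5 to 10 among receptors, from 5 to 10 among processing and granin genes, from 14 to 33 among other precursors and from 4569 to 8148 among all genes. The filter on dim genes, which tests fewer genes, left 1, 2 and 3 higher in the first 3 of these sets. Array weights gave 8 higher processing and granin genes and 22 higher and 3 lower other precursors. At an adjusted p under 0.01 there were 1 higher precursor gene, 3 higher receptors, 7 higher other precursors and 2886 higher genes in all. With 1 array left out, higher calls ran from 1 to 3 in the precursor genes, from 3 to 5 in receptors and from 8 to 14 in other precursors, and lower calls from 1 to 2 in other precursors (2 without SKP replicate 2). Signs changed only in genes that were not called. With 1 array left out, Adm ran from -0.0074 to 0.14 (-0.0062 without SKP replicate 3), Ramp1 from -0.47 to 0.21, Sort1 from -0.059 (without SKP replicate 2) to 0.54, Sstr1 from -0.0016 to 0.19 and Sstr3 from -0.13 to 0.17. With renewed quantile normalization Ramp1 was at 0.11, Npy4r at -0.031 and Sstr1 at -0.0051, and with median centring Ramp1 was at 0.12. Apart from the fits with fewer genes or arrays, the cause was not tested. Deviations of same-numbered arrays correlated at only 0.028 to 0.050, so the numbers were not taken to pair the cultures, although every array correlated best with its own number. With the replicate number as a block, Calca and Vip were again called higher and Npy, Tac1 and Gal lower. In that fit 4378 genes were higher and 3303 lower in all.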
